A study of Rattus norvegicus with 9 samples.

Results

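Genes of the enzymes that make cholesterol were examined in rat bladder tumors. The group was 8 named genes, Hmgcs1, Idi1, Fdps, Fdft1, Sqle, Lss, Cyp51 and Dhcr7, taken by symbol from the array annotation. A gene counted as measured if a probe set mapped to its symbol and to no other, which held for 7 of the 8 genes, with 11 probe sets among them, of 14217 genes and 31042 probe sets in all. Hmgcs1 had no such probe set in the annotation used and is not analysed here. For each gene the probe set with the highest mean over the 9 arrays is given first, and levels are not compared between probe sets, because their brightness differs for reasons other than transcript amount.

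The samples were 3 bladder transitional cell carcinomas (BTCC), 3 adjacent normal tissues of the tumor-bearing animals and 3 bladders described as coming from separate normal rats. All animals were female SD (Sprague-Dawley) rats with a stated age of 10 weeks. Tumors were induced by weekly instillation of 20 mg/ml MNU (N-methyl-N-nitrosourea, an alkylating carcinogen) into the bladder for 10 weeks. The sample labels carry this text for all 9 samples, the normal bladders included, whereas the series design calls the last group tissue of normal rats. The arrays measured whole tissue pieces, in which fewer cells of a type and less RNA per cell cannot be told apart.

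Cholesterol is built from acetyl-CoA through the mevalonate pathway. Mevalonate is converted to isoprenoid units, these are joined to farnesyl diphosphate and then squalene, and squalene is oxidised, closed to lanosterol and trimmed to cholesterol. The genes are known targets of SREBP2, a membrane-bound transcription factor that is released when cell sterol is low, and dividing cells need the product for new membranes. Farnesyl diphosphate also feeds branches that do not lead to sterols, such as dolichol and ubiquinone synthesis and protein prenylation.

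The stretches of 250 bases before the annotated gene starts are shown for 4 of the genes, because SREBP2 is known to act at promoters together with NF-Y, which binds CCAAT, and Sp1, which binds GGGCGG. Fdps, Idi1 and Dhcr7 were chosen as genes with higher signal in tumors and Lss as the gene without it. They were read from RefSeq promoter entries of the GRCr8 build and run 5′ to 3′ on the strand of the gene. Capitals mark CCAAT or GGGCGG or their reverse complements ATTGG and CCGCCC.
Fdps (chr2:176804817-176805066, minus strand): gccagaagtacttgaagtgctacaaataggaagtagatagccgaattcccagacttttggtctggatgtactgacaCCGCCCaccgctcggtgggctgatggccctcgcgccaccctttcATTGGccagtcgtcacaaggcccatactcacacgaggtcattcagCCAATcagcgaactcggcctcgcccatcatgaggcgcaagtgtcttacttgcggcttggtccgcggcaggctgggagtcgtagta
Idi1 (chr17:66547525-66547774, minus strand): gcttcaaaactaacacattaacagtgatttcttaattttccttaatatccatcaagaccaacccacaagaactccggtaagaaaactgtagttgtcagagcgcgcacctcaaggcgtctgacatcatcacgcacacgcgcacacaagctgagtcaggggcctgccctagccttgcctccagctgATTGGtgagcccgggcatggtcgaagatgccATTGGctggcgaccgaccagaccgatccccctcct
Dhcr7 (chr1:208444184-208444433, plus strand): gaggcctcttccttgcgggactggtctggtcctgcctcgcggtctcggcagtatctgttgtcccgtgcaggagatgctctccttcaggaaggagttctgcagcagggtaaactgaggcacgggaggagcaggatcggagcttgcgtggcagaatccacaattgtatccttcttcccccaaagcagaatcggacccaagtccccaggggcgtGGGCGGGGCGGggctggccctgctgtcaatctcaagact
Lss (chr20:12118231-12118480, minus strand): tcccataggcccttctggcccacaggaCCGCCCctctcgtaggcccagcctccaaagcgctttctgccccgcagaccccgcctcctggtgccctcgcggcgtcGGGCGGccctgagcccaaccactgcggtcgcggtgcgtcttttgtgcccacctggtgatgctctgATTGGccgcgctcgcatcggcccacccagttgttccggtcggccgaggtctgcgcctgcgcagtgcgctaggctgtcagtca

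Promoter entries were found for 6 of the 8 genes, Hmgcs1 included, and none was given for Sqle or Fdft1. The Hmgcs1 stretch (chr2:53382054-53382303) lay inside the annotated gene, which runs from 53379457 to 53399807, and not before it as the others did. CCAAT, searched on both strands, was found in 4 of these 6 stretches (Hmgcs1, Fdps, Idi1 and Lss), against 34.3% of 27457 promoters of the same length. GGGCGG was found in 5 of 6, the exception being Idi1, against 32.4% of all promoters. In Dhcr7 the 2 matches to GGGCGG overlapped by a base. The sterol regulatory element core was searched as TCACNCCAC and as the shorter TCACNCCA, which lies within the longer form. Neither was found in the 6 stretches, against 0.976% and 3.25% of all promoters. At shares this low no match among 6 was the likely outcome, so it says nothing about the members. Other forms of the element were not searched. These are matches of letters in a fixed window and not mapped binding sites. CCAAT and GGGCGG were both present before Lss and before Fdps, of which only Fdps passed the test in the tissues. A relation between these motifs and the signal was not tested.

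The arrays were scaled by the authors to a common level, with a trimmed mean linear signal between 500.15 and 500.18 on each array. Median log2 signals ran from 6.87 to 7.24. The median standard deviation (SD) of a gene within a group was 0.172 in normal bladder, 0.339 in tumors and 0.355 in adjacent tissue. Adjacent tissues correlated with tumors at 0.897 to 0.930 over all probe sets and with normal bladders at 0.838 to 0.899. The cell makeup differed too. The summed signal of 10 markers of dividing cells was 411, 830 and 915% of the normal mean in tumors 1, 2 and 3 and 341, 607 and 847% in adjacent tissues 1, 2 and 3, with 10 of 10 called higher in both. That of 11 smooth muscle markers was 68.6, 2.56 and 2.96% in the tumors and 33.7, 10.4 and 4.49% in adjacent tissue, with 5 and 11 called lower. Tumor 1 thus kept most of the muscle signal of normal bladder.

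In tumors, 5 of the 7 measured genes had higher signal than in normal bladder at an adjusted p (limma, adjusted over all probe sets) under 0.05, and 0 had lower signal. The background was 13.6% of all genes higher and 9.95% lower. Dhcr7, Sqle and Cyp51 stood 2.85 to 3.41-fold above normal bladder and Idi1 and Fdps 1.92 to 2.19-fold, while Fdft1 did not pass the test and Lss, in the middle of the pathway, had a value slightly below normal. The median log2 fold change of the 7 genes was 1.13, beside 0.05 over all genes. For 6 of 7 genes every tumor lay above every normal bladder, a pattern that 25.7% of all genes showed. An exact two-sided permutation test of 3 against 3 arrays cannot give a p under 0.1, and gave 0.1 for each of these 6. The p-values of both comparisons with normal bladder rest on the same 3 normal arrays.

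**Figure D1:**
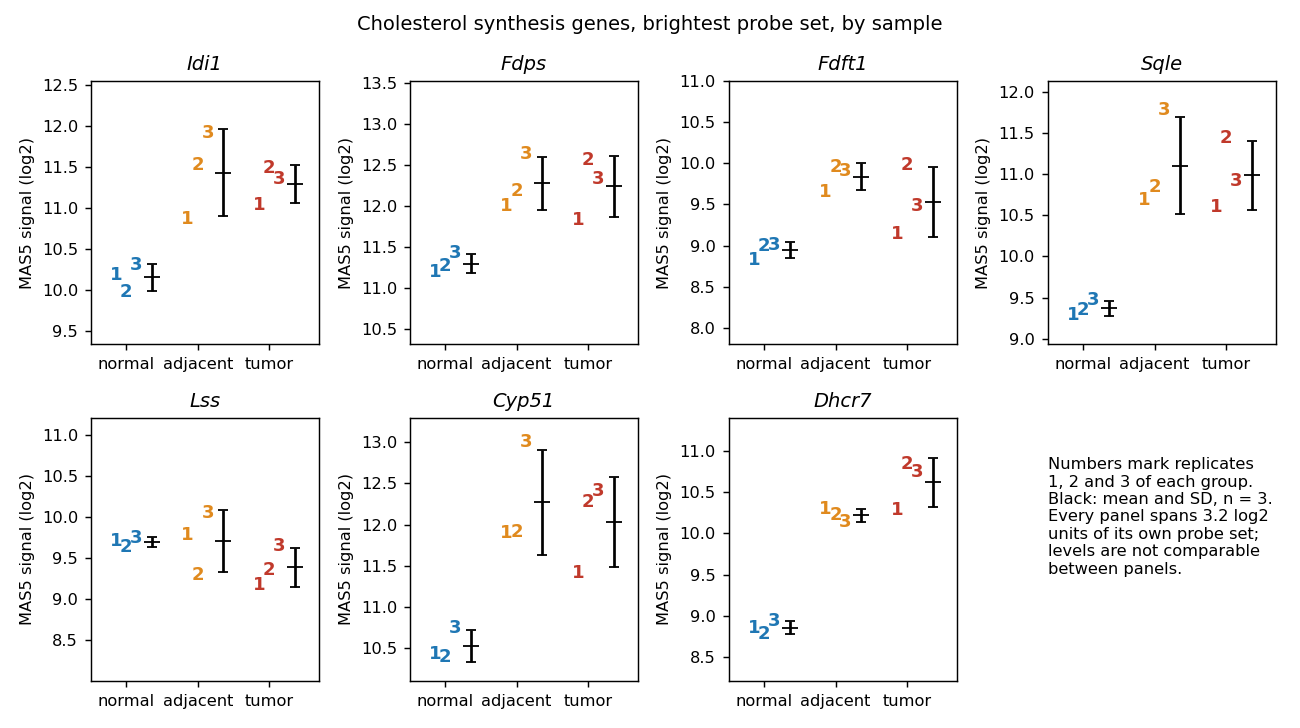
Log2 MAS5 signal (vertical axis) of the brightest probe set of each of the 7 measured genes in normal bladder, adjacent tissue and tumor (horizontal axis), with replicate numbers as points and the mean ± SD of 3 samples in black. For every gene but Lss, the 6 samples of tumor-bearing rats lie above the 3 normal bladders, and tumor 1 is the lowest tumor in all 7 panels.

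The early steps supply the isoprenoid units. Idi1 (probe set 1368878_at) encodes isopentenyl-diphosphate isomerase, which makes the starter unit dimethylallyl diphosphate. Its log2 signal was 11.03, 11.48 and 11.35 in tumors 1 to 3, 10.86, 11.53 and 11.91 in adjacent tissues 1 to 3, and 10.19, 9.98 and 10.30 in normal bladders 1 to 3. All 6 samples of tumor-bearing rats were above the highest normal bladder, and tumors and adjacent tissues overlapped. The log2 fold change was 1.13 ± 0.16 (SE, n = 3 against 3; 2.19-fold, limma adjusted p = 0.00633) in tumors and 1.28 ± 0.25 (2.42-fold, limma adjusted p = 0.0122) in adjacent tissue. A dimmer probe set of Idi1 gave 0.92 (adjusted p = 0.0224) and 1.16 (adjusted p = 0.00879). Its call in tumors was lost without any one normal bladder (adjusted p of 0.065 to 0.0856) or without the variance trend of the fit (adjusted p = 0.0711). The methods' t-test ended its calls in both groups (adjusted p = 0.0988 in tumors and 0.0717 in adjacent tissue). For the brightest probe set the call in tumors held in all 14 alternatives that were run. The call of that probe set in adjacent tissue was lost in 4 of 14. It was lost without normal bladder 1 (adjusted p = 0.0524) or 2 (adjusted p = 0.0603), without the variance trend (adjusted p = 0.0564) and by the methods' t-test (adjusted p = 0.0959).

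Fdps (1367667_at) encodes farnesyl diphosphate synthase, whose product stands at the branch point between sterols and prenyl groups. Its log2 signal was 11.83, 12.56 and 12.33 in tumors 1 to 3, 12.00, 12.19 and 12.64 in adjacent tissues, and 11.20, 11.27 and 11.42 in normal bladders. The groups of tumor-bearing rats again lay wholly above normal bladder and overlapped with each other. On the log2 scale the difference was 0.94 ± 0.19 (SE; 1.92-fold, limma adjusted p = 0.0191) in tumors and 0.98 ± 0.18 (1.97-fold, limma adjusted p = 0.00838) in adjacent tissue. In tumors this call was lost when tumor 3 (adjusted p = 0.0686) or normal bladder 1, 2 or 3 (adjusted p = 0.0811, 0.0804 and 0.0639) was left out, with log2 fold changes of 0.89 to 1.0. It was also lost without the variance trend (adjusted p = 0.0687) and by the methods' t-test (adjusted p = 0.0956). In adjacent tissue the call of Fdps was lost only by the methods' t-test (adjusted p = 0.0677).

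Fdft1 and Sqle encode the enzymes that commit the pathway to sterols. Fdft1 (1367839_at) encodes squalene synthase. Its log2 signal was 9.14, 9.97 and 9.48 in tumors 1 to 3, 9.65, 9.96 and 9.91 in adjacent tissues, and 8.83, 8.99 and 9.01 in normal bladders. Neither group of tumor-bearing rats overlapped with normal bladder, but tumor 1 was only 0.19 above the normal mean. The log2 fold change in tumors was 0.58 ± 0.22 (SE; limma adjusted p = 0.111) and did not pass the test. Without tumor 1, the tumor with the most muscle signal, it was 0.78 and passed (adjusted p = 0.0127). In adjacent tissue Fdft1 was 1.86-fold higher (log2 fold change 0.89 ± 0.15, limma adjusted p = 0.0066). The dimmer probe set passed in neither group, at 0.30 (adjusted p = 0.421) and 0.38 (adjusted p = 0.135), though median centring brought it past the threshold in adjacent tissue (adjusted p = 0.0343).

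Sqle (1387017_at) encodes squalene epoxidase, which adds the oxygen that later becomes the hydroxyl group of cholesterol and is known as a rate-limiting step. Its log2 signal was 10.60, 11.44 and 10.92 in tumors 1 to 3, 10.69, 10.85 and 11.78 in adjacent tissues, and 9.29, 9.35 and 9.47 in normal bladders. Every sample of tumor-bearing rats exceeded the highest normal bladder by more than 1 log2 unit. Against normal bladder Sqle had log2 fold changes of 1.62 ± 0.21 (SE; 3.08-fold, limma adjusted p = 0.00539) in tumors and 1.74 ± 0.27 (3.33-fold, limma adjusted p = 0.0049) in adjacent tissue. The call in tumors held in all 14 alternatives, and that in adjacent tissue in 13 of 14.

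Lss was called in neither comparison. It encodes lanosterol synthase, which closes oxidosqualene to the first sterol. The log2 signal of its brightest probe set (1372973_at) was 9.17, 9.36 and 9.64 in tumors 1 to 3, 9.79, 9.29 and 10.04 in adjacent tissues, and 9.71, 9.64 and 9.75 in normal bladders. The groups overlapped. The log2 fold change was -0.31 in tumors (95% confidence interval -0.67 to 0.05, limma adjusted p = 0.210) and 0.01 in adjacent tissue (-0.45 to 0.47, limma adjusted p = 0.980). Both intervals lay below those of Sqle on the one side (1.13 to 2.12 in tumors, 1.11 to 2.37 in adjacent tissue) and of Cyp51 on the other side of this step (0.89 to 2.13 and 1.07 to 2.43), although the difference between genes was not tested. The other probe set of Lss was dim, with linear signals of 31.1 to 101 over the 9 arrays, and passed in neither group, at log2 fold changes of -0.48 (adjusted p = 0.533) and 0.13 (adjusted p = 0.862). With quantile normalization the value of the brightest probe set in adjacent tissue turned to -0.0129.

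Cyp51 and Dhcr7 act after lanosterol. Cyp51 encodes the cytochrome P450 that removes a methyl group from lanosterol. The log2 signal of its brighter probe set (1367979_s_at) was 11.41, 12.27 and 12.41 in tumors 1 to 3, 11.89, 11.91 and 13.00 in adjacent tissues, and 10.43, 10.39 and 10.75 in normal bladders. Both groups of tumor-bearing rats were wholly above normal bladder. Its log2 fold change was 1.51 ± 0.27 (SE; 2.85-fold, limma adjusted p = 0.012) in tumors and 1.75 ± 0.29 (3.36-fold, limma adjusted p = 0.00648) in adjacent tissue. The call in tumors was lost without normal bladder 1 (adjusted p = 0.0591) or 2 (adjusted p = 0.0595), and by the methods' t-test (adjusted p = 0.084). The other probe set gave smaller differences, 0.91 (adjusted p = 0.00782) and 1.09 (adjusted p = 0.00933), that passed as well. In adjacent tissue the methods' t-test ended the calls of both probe sets (adjusted p = 0.0768 for the brighter and 0.059 for the other).

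Dhcr7 (1368189_at) encodes 7-dehydrocholesterol reductase, which performs the last step and competes with the use of its substrate for vitamin D. Its log2 signal was 10.29, 10.84 and 10.74 in tumors 1 to 3, 10.30, 10.23 and 10.14 in adjacent tissues, and 8.85, 8.77 and 8.94 in normal bladders. The adjacent tissues were close together, and all 6 samples of tumor-bearing rats were more than 1 log2 unit above normal bladder. Dhcr7 gave log2 fold changes of 1.77 ± 0.17 (SE; 3.41-fold, limma adjusted p = 0.00272) in tumors and 1.37 ± 0.13 (2.58-fold, limma adjusted p = 0.000991) in adjacent tissue. Both calls held in all 14 alternatives of each comparison.

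Adjacent tissue was thus not at the level of normal bladder for most of these genes. In adjacent tissue 6 of 7 genes were called higher and 0 lower, beside 13.3% of all genes higher and 11.5% lower, and the median log2 fold change was 1.28, beside 0.01 over all genes. For 6 of 7 genes every adjacent tissue lay above every normal bladder, as did 24.8% of all genes. Centring the arrays on their medians raised every log2 fold change against normal bladder by 0.20 and ended no call of these genes.

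Between tumors and adjacent tissue 0 of 7 genes passed the test in limma, and 0 had an unadjusted p under 0.05. Over all genes 0% were called higher and 0% lower, 376 genes had an unadjusted p under 0.05, and the methods' t-test called 0 of the 7 members. No member separated the groups, whereas 4.1% of all genes had every tumor above every adjacent tissue and 2.96% every tumor below. The log2 fold change, tumor minus adjacent, ran from -0.32 for Lss (95% confidence interval -0.89 to 0.25) to 0.40 for Dhcr7 (-0.04 to 0.85). For Sqle it was -0.12 (-0.89 to 0.66), for Cyp51 -0.24 (-1.11 to 0.64) and for Fdps -0.04 (-0.61 to 0.54). With 3 tissues a group, intervals of this width hold differences of up to about 1 log2 unit.

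**Figure D2:**
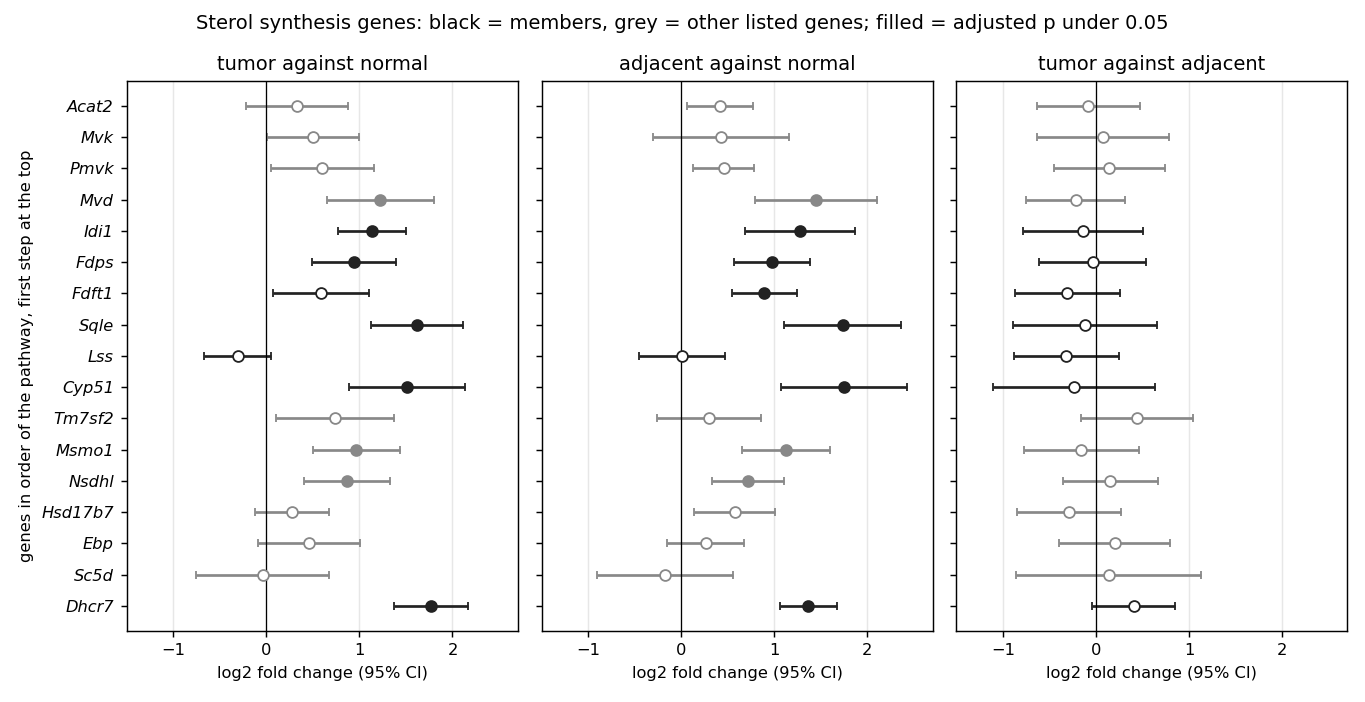
Log2 fold change (horizontal axis, with 95% confidence interval) of 17 sterol synthesis genes in pathway order (vertical axis) for tumor against normal, adjacent against normal and tumor against adjacent tissue. Black points are the 7 measured members, grey points the 10 other listed genes, and filled points have an adjusted p under 0.05. The intervals of Sqle, Cyp51 and Dhcr7 lie to the right of 0 in the first 2 panels while that of Lss, between Sqle and Cyp51, crosses 0, and no point is filled in the last panel.

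The other enzymes of the route were taken from a list of 11 genes, of which 10 were measured. In tumors 3 were called higher and 0 lower, with a median log2 fold change of 0.55, and in adjacent tissue the same 3 were called, with a median of 0.44. Over all genes 13.6% were called higher in tumors and 13.3% in adjacent tissue. Mvd encodes mevalonate diphosphate decarboxylase, which forms the substrate of Idi1. Its log2 signal was 8.74, 8.92 and 8.97 in tumors, 8.75, 9.07 and 9.47 in adjacent tissues and 7.35, 7.45 and 8.17 in normal bladders, with log2 fold changes of 1.22 ± 0.24 (SE; limma adjusted p = 0.0173) and 1.44 ± 0.28 (limma adjusted p = 0.0115). Msmo1 and Nsdhl remove methyl groups after Cyp51 and were 0.97 (adjusted p = 0.0188) and 0.87 (adjusted p = 0.0259) higher on the log2 scale in tumors and 1.13 (adjusted p = 0.00887) and 0.71 (adjusted p = 0.0221) in adjacent tissue. All 3 genes had no overlap with normal bladder in either group. Their calls in tumors were lost without tumor 3, normal bladder 1 or normal bladder 2, those of Msmo1 and Nsdhl also without normal bladder 3 and that of Nsdhl without tumor 2 (adjusted p of 0.0591 to 0.103). In adjacent tissue the call of Mvd was lost without normal bladder 1 or 2 and that of Nsdhl without 2 or 3 (adjusted p of 0.0561 to 0.101).

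The remaining 7 did not pass in either comparison. Acat2, Mvk and Pmvk, of the steps before Mvd, had log2 fold changes of 0.33, 0.51 and 0.60 in tumors and 0.41, 0.43 and 0.46 in adjacent tissue. Late in the route, Tm7sf2, Hsd17b7 and Ebp gave 0.74, 0.28 and 0.46 in tumors and 0.30, 0.57 and 0.26 in adjacent tissue, and Sc5d, which acts just before Dhcr7, gave -0.04 and -0.18. The sign of Sc5d depended on the probe set and the scaling. The count of called genes among these 10 in tumors stood at 6 without tumor 1, at 2 without tumor 2, at 0 without tumor 3, normal bladder 1 or normal bladder 2, and at 1 without normal bladder 3. Among the 7 members the same count was 6 without tumor 1, 3 without normal bladder 1 or 2, and 4 without tumor 3 or normal bladder 3. In adjacent tissue the count among the 10 was 1 without normal bladder 2, 2 without normal bladder 1 or 3, 3 without adjacent tissue 2, and 4 without adjacent tissue 1, where Pmvk passed (adjusted p = 0.038), or without adjacent tissue 3, where Hsd17b7 passed (adjusted p = 0.036). Among the 7 members the count in adjacent tissue was 5 without normal bladder 1 or 2 and 6 when any other single array was left out. The share of all genes called with each array left out is not given. These counts therefore do not tell a change in the listed genes from a change in calls over all genes.

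Within the groups the members ranked the samples in similar order. Tumor 1 was the lowest tumor for 7 of 7 genes and tumor 2 the highest for 5. Among adjacent tissues, number 1 was lowest for 5 genes and number 3 highest for 5, Dhcr7 being an exception with its lowest adjacent value in number 3. Among normal bladders number 3 was highest for 7 of 7, with differences from the normal mean of 0.05 to 0.22. After group means were removed, Pearson's r between pairs of members was above 0 for 21 of 21 pairs, from 0.04 (Fdft1 and Lss) to 0.94 (Sqle and Fdps), with a median of 0.60 over the 9 arrays. With group means kept, the median was 0.88, while Lss had -0.32 to 0.12 with the other 6. These are descriptions over 9 arrays that share the scaling of each array. Ranks were not counted for other genes, and within-group r was not computed for pairs of them. The rank counts and 21 of 21 thus have no background beside them.

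The summed linear signal of the 7 genes was 163, 264 and 242% of the normal mean in tumors 1, 2 and 3, 189, 212 and 330% in adjacent tissues 1, 2 and 3, and 94.95 to 109% in normal bladders. Tumor 1, with the lowest sum, had the lowest dividing-cell signal among tumors and by far the highest smooth muscle signal, and adjacent tissue 1 stood in the same place among adjacent tissues. For 8 epithelial markers the sum ran from 140 to 179% over the tumors and from 113 to 142% over the adjacent tissues, with 5 of 8 called higher in both and 1 of 8 lower in adjacent tissue. Of 6 basal and squamous markers 5 and 6 were called higher (261 to 313% and 263 to 380%), and of 5 umbrella cell markers, which define the bladder surface layer, 2 and 1 were called lower (63.4 to 90.9% and 49.8 to 99.4%). Of 8 macrophage markers 2 were called higher in both (133 to 170% and 152 to 192%), and of 5 endothelial markers 1 and 2 (85.8 to 125% and 85.3 to 113%). The part of these cell types in the members' levels was not tested. Beside the counts of markers, 13.6 and 13.3% of all genes were called higher in tumors and adjacent tissue, and 9.95 and 11.5% lower.

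**Figure D3:**
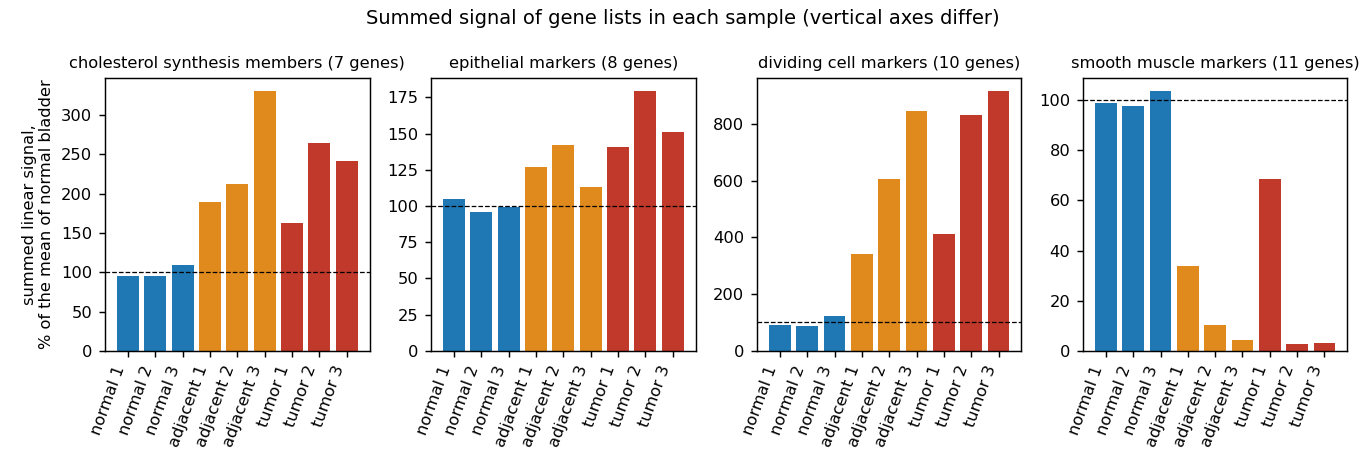
Summed linear signal of 4 gene lists in each of the 9 samples (bars, blue for normal bladder, orange for adjacent tissue, red for tumor), as a percentage of the mean of the 3 normal bladders (dashed line at 100). Within tumors and within adjacent tissues, the sample with the lowest member sum (163 and 189%) has the lowest dividing-cell sum (411 and 341%) and the highest smooth muscle sum (68.6 and 33.7%).

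Genes beside the route were taken from 4 further lists. Over all genes 13.6% were called higher in tumors and 13.3% in adjacent tissue, so 1 call in a list of 7 or 8 is near the background. Of 7 genes that control SREBP, Scap, which escorts SREBP to the Golgi, was called in tumors (log2 fold change 0.77, adjusted p = 0.0183). Insig1, which retains Scap in the endoplasmic reticulum and is itself a known sterol-responsive gene, was called in adjacent tissue (0.78, adjusted p = 0.0263). Insig1 had the same size of difference in tumors (0.78, adjusted p = 0.128), where tumor 1 at 9.85 overlapped with normal bladder. The transcript of SREBP2 itself, Srebf2, which was named after its values were seen, gave 0.39 (adjusted p = 0.126) and 0.19 (adjusted p = 0.481). Of 8 measured genes of the nonsterol branch 1 was called in each comparison, Nus1, a subunit of the dolichol-making enzyme, at 0.75 (adjusted p = 0.00982) and 0.95 (adjusted p = 0.00653). Leaving out any one normal bladder ended the calls of Scap and Insig1, and leaving out tumor 3 that of Scap (adjusted p of 0.0581 to 0.112). Both were also lost without the variance trend (adjusted p = 0.0693 for Scap and 0.0891 for Insig1) and by the methods' t-test (0.0779 and 0.109), and Insig1 with all 9 arrays in 1 fit (adjusted p = 0.114). The call of Nus1 in tumors was lost without normal bladder 1 or 2 (adjusted p of 0.0563 and 0.0553) or without the variance trend (adjusted p = 0.0527), and that in adjacent tissue by the methods' t-test (adjusted p = 0.0543).

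Of 16 measured genes of sterol uptake, storage and efflux, adjacent tissue had 1 called higher, beside 13.3% of all genes, and 0 lower. In tumors 5 were called higher, beside 13.6% of all genes, and 0 lower. In tumors these included Soat1, which esterifies cholesterol for storage (log2 fold change 1.32 ± 0.24, limma adjusted p = 0.0128), and Nceh1, a cholesteryl ester hydrolase (1.28 ± 0.24, limma adjusted p = 0.0149). Stard3, a cholesterol transport protein of late endosomes, was also called (0.92 ± 0.19, limma adjusted p = 0.0192). The other two, named after their values were seen, were the efflux transporter Abcg1 (0.63, adjusted p = 0.0326) and the lysosomal lipase Lipa (0.58, adjusted p = 0.0196). In adjacent tissue Stard3 passed (0.86, adjusted p = 0.00326), and the same 4 others gave 0.74, 0.89, 0.58 and 0.36 with adjusted p from 0.0731 to 0.162. Without tumor 1 the tumor count was 8 and without tumor 3 it was 2, and it was 1, 0 and 1 without normal bladder 1, 2 and 3, and 1 without the variance trend or by the methods' t-test. The adjacent count was 6 with median centring, and 2, 2 and 4 without adjacent tissue 1, 2 and 3. For these settings the share of all genes called is not given, so the counts are not read as a result about this list. No gene of these lists differed between tumors and adjacent tissue at an adjusted p under 0.05.

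Fatty acid synthesis, whose genes are mostly under the related factor SREBP1, was the last of these lists. Of 10 genes 1 was called higher and 3 lower in both comparisons. Of all genes 13.6 and 13.3% were called higher and 9.95 and 11.5% lower, so 1 higher call of 10 is near the background. The desaturases Fads1 and Fads2, which make polyunsaturated fatty acids, were lower. Fads2 had log2 signals of 7.57, 7.26 and 7.799 in tumors, 7.61, 7.19 and 6.79 in adjacent tissues and 9.12, 8.94 and 9.10 in normal bladders, and fell by 1.51 (SE 0.19, limma adjusted p = 0.00465) and 1.86 (SE 0.24, limma adjusted p = 0.00242) on the log2 scale. Fads1 fell by 1.08 (adjusted p = 0.0236) and 1.64 (adjusted p = 0.00747). No sample of tumor-bearing rats reached the lowest normal bladder for either gene. The call of Fads1 in adjacent tissue was lost only by the methods' t-test (adjusted p = 0.0804). The calls of Fads2 held in all 14 alternatives of each comparison, while that of Fads1 in tumors was lost with median centring (adjusted p = 0.0512), without the variance trend (adjusted p = 0.0737), by the methods' t-test (adjusted p = 0.113), without tumor 2 (adjusted p = 0.0641) or without any one normal bladder (adjusted p of 0.081 to 0.0915).

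Scd1, the stearoyl-CoA desaturase that is listed as Scd in the annotation, had log2 signals of 5.87, 7.43 and 6.27 in tumors, 5.83, 6.09 and 7.66 in adjacent tissues and 11.28, 8.63 and 8.43 in normal bladders. Normal bladder 1 was far above normal bladders 2 and 3, and it also had the highest adipocyte marker sum, 158% of the normal mean against 74.8 and 67.2%. That sum was 88.9, 16.9 and 27.2% in tumors 1 to 3 and 56.5, 52.7 and 36.8% in adjacent tissues 1 to 3. The log2 fold changes of Scd1 were -2.93 (adjusted p = 0.0427) and -2.92 (adjusted p = 0.0383). Without normal bladder 1 both were -2.01 (adjusted p = 0.069 and 0.077), so that the calls were lost. Leaving out any other normal bladder ended them too, with adjusted p of 0.0585 to 0.0835, as did leaving out tumor 2 (0.0542), tumor 3 (0.126), adjacent tissue 1 (0.0841) or adjacent tissue 2 (0.108). In tumors the call was also lost with quantile normalization, median centring or an offset of 50 (0.0507 to 0.0522), and both calls without the variance trend (0.0983 and 0.104) and by the methods' t-test (0.171 and 0.184). The part of adipocytes in the Scd1 level was not tested. Of the 6 adipocyte markers 0 were called in limma in either comparison, with 0 and 2 at an unadjusted p under 0.05. Fasn, fatty acid synthase, was named after its values were seen as the gene that was called higher, at 0.62 (adjusted p = 0.0327) and 0.66 (adjusted p = 0.0323).

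**Figure D4:**
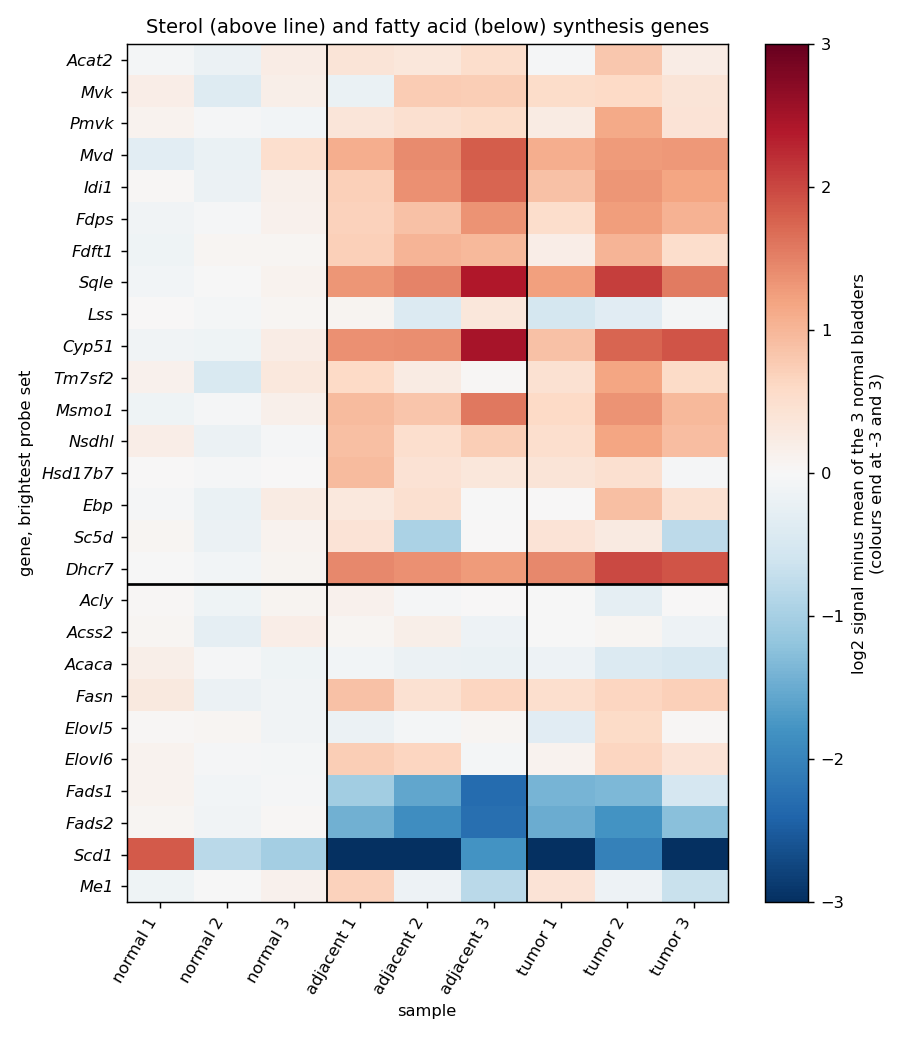
Log2 signal minus the mean of the 3 normal bladders (colour, red higher, blue lower, ending at -3 and 3) for 17 sterol synthesis genes above the line and 10 fatty acid synthesis genes below it (vertical axis) in the 9 samples (horizontal axis). Sqle, Cyp51 and Dhcr7 are red in all 6 samples of tumor-bearing rats, Lss is pale, and Fads1, Fads2 and Scd1 are blue.

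The genes most like the members were sought by Pearson's r between each gene and the mean profile of the 7 members over the 9 arrays, among 11069 genes with a mean linear signal of at least 50. The 10 highest were Aph1a (0.991), Mrps6 (0.990), Strn (0.990), Ngdn (0.990), Fgfbp1 (0.989), Ppp1r14b (0.987), Tgif1 (0.986), Msmo1 (0.986), Ceacam1 (0.985) and Plek2 (0.985). Msmo1 alone among them belongs to the sterol route. The 9 points fall into the 3 groups, so that any gene high in both groups of tumor-bearing rats scores highly.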

How the data were processed

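RNA of 9 rat bladder samples in 3 groups of 3 was labelled by 3′ in vitro transcription for Affymetrix arrays. The authors normalized the scans with the MAS5 algorithm in Gene Spring, and the deposited values are log2 signals. Because MAS5 scales each array to a common mean, a change in a large share of transcripts would be absorbed, and the number of arrays limits the precision. Labels do not say which tumor and adjacent tissue share a rat.

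All 31042 probe sets other than 57 array controls were tested. The annotation gave 1 gene to 20826 of them, several to 436 and none to 9780. For every comparison a separate limma fit was made on its 6 arrays (limma 3.58.1, R 4.3.3, eBayes with trend), because tumors and adjacent tissue share animals. Adjustment followed Benjamini-Hochberg across all tested probe sets, and genes with an adjusted p under 0.05 were called. The scripts were tested on simulated data. Alternatives were quantile normalization, median centring, a filter at the 40th percentile, an offset of 50, no variance trend, all 9 arrays in 1 fit, averaging over the probe sets of a gene, the methods' t-test, a replicate block and leaving out each array.

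Named genes are all members, the other sterol synthesis genes, up to 3 called genes of each further list with the largest change, and the 10 genes most like the members. The members and lists were chosen with earlier results of these data known, and list members without a probe set of their own were not analysed here.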

Additional observations from a re-analysis of the deposited data

How the results depend on the processing

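Leaving out 1 array at a time, the number of members called ranged from 3 to 6 of 7 in tumors and from 5 to 6 in adjacent tissue, and that of the other sterol synthesis genes from 0 to 6 and from 1 to 4 of 10. The count for each array is given in the report. The share of all genes called under each alternative is not given, here or above. These counts and those that follow therefore do not tell a change in the listed genes from a change in calls over all genes. Adjusted over all probe sets, the methods' t-test called 3 members and 0 other genes in tumors and 2 members and 0 others in adjacent tissue. Without the variance trend 4 members (Fdps lost, adjusted p = 0.0687) and 0 other genes were called in tumors, and 5 members (Idi1 lost, adjusted p = 0.0564) and 2 others (Nsdhl lost, adjusted p = 0.0767) in adjacent tissue. With median centring 6 other genes were called in adjacent tissue. Of 98 alternative values of members in each comparison with normal bladder, 9 lost and 1 gained a call in tumors, and 7 lost a call and 4 changed sign in adjacent tissue, all 4 of them for Lss. The cause was not tested.

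Sign changes concerned values that did not pass the test. Sc5d in tumors was 0.16 with centring, 0.37 as the mean of its probe sets, and -0.26 to 0.34 with an array left out. In adjacent tissue Sc5d was 0.025, 0.15 and -0.47 to 0.21 in the same order, and Lss was -0.0129 with quantile normalization and -0.16 to 0.22 with an array left out (-0.16 to 0.37 for its other probe set). Tumor against adjacent tissue, leaving out an array gave -0.34 to 0.22 for Sqle, -0.20 to 0.17 for Fdps, -0.43 to 0.13 for Cyp51, -0.43 to 0.10 for Idi1 and -0.33 to 0.058 for the other probe set of Fdft1.

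Deviations of same-numbered tumors and adjacent tissues correlated at 0.240, 0.044 and 0.137 over probe sets, and those of differently numbered ones at -0.212 to 0.106. Each adjacent tissue correlated best with the tumor of its own number. The labels do not state pairs, so the numbers were not taken as pairs in the main fits. With the number as a replicate block, 0 members and 0 other sterol synthesis genes were called between tumors and adjacent tissue, with adjusted p of 0.919 to 0.984 for the members. The block changed no call.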
